A study of Homo sapiens with 2 samples.

Results

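The 8 genes described here encode adaptor proteins that carry an SH2 domain, and binding of the chromatin protein DEK around them was measured by ChIP-seq in the human kidney cancer cell line 786-O. The set holds SHB, the related genes SHD, SHE and SHF, and the SHC genes SHC1, SHC2, SHC3 and SHC4, which make up 8 of 19974 RefSeq protein-coding genes on chromosomes 1 to 22 and X. SHB was selected on earlier results of these same peak lists, and the others were taken as its relatives and the SHC family. The number and density of DEK regions at SHB are therefore a description, with no test. The series used here holds 2 ChIP samples, replicates 1 and 2 of a single group of 786-O cells labelled wild type and negative control, with DEK as the antibody. The deposited peak lists carry Cas9 in their names. The labels leave unsaid whether negative control means the cells or the precipitation. They also leave unsaid whether the replicates were separate cultures, so the spread between the replicates may be technical. No edited, input or other-antibody sample was used here.

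An adaptor protein has no enzymatic activity of its own. Its SH2 domain docks on phosphorylated tyrosines of an activated receptor, and its other parts recruit further signalling proteins. SHC1 couples many receptor tyrosine kinases through GRB2 and SOS proteins to RAS. SHB acts below receptors for vascular endothelial growth factor, platelet-derived growth factor and fibroblast growth factor, and in T cells below the antigen receptor. DEK itself is an abundant nuclear protein that binds DNA and histones.

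Each gene was examined in a window of its span plus 20 kb on each side, in which every deposited peak was counted. Where a replicate 1 peak and a replicate 2 peak overlapped, by 1 bp or more, they formed a shared region, and the whole series held 12590 of these. The windows of the 8 genes held 36 peaks of replicate 1 and 38 of replicate 2, out of 19015 and 24457, and 24 shared regions. The summit pileup, the number of fragments that overlap at a summit, was typically low, with a median of 19 in each library, and the median fold enrichment over local background was 3.99 in replicate 1 and 3.89 in replicate 2. Where a window is given without peaks, weaker binding could have gone undetected.

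The promoter sequences of SHB and SHC1 are shown because the peaks lay differently around them. RefSeq promoter windows of GRCh38.p14, which run from 250 bases before to 50 bases after a transcription start, were at hand for 11 starts of the 8 genes. A shared region overlapped only 1 of these 11, a start inside SHC1, against 3.08% of 34961 promoter windows of all genes. The SHB window, chr9:38069178-38069477 on the minus strand, overlapped no peak of either library. Its GC content was 85.0%, with 49 CpG dinucleotides, against medians of 58.7% and 14 over all promoter windows. The letters GGGCGG, the core of the Sp1 motif, occurred 7 times, all on the printed strand, and are in capitals. A pair of these matches overlap by a base, in the longest run of capitals. In all windows, 45.0% held this motif on either strand. The SHC1 window, chr1:154970698-154970997 on the minus strand, had 61.7% GC and 7 CpG dinucleotides, and its 234 capitals mark the bases inside the shared region. It held GGGCGG 3 times, on either strand, and the AP-1 motif TGAGTCA once, its reverse complement TGACTCA included, which 4.92% of all windows held. These matches describe letters and do not show that a factor was bound.

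SHB promoter: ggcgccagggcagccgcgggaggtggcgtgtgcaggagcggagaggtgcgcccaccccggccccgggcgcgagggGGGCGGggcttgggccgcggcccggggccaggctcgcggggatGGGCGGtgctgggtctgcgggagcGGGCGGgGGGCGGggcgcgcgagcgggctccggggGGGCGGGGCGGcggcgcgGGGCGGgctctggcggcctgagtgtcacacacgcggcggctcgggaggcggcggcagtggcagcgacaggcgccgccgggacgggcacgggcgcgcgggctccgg
SHC1 internal promoter: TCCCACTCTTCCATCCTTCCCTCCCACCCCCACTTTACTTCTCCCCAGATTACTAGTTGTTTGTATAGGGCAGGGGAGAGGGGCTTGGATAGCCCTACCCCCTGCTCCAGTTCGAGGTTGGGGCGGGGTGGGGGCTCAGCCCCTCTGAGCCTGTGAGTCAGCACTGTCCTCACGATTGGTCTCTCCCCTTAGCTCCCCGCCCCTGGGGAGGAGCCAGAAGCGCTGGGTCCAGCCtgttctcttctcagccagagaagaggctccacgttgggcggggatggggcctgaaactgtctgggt

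SHB lies on chromosome 9 at 37915898 to 38069227 and is transcribed from its higher coordinate, and shared regions were spread over much of the gene. Its window held 17 peaks in replicate 1 and 19 in replicate 2, which formed 13 shared regions, 12 of them inside the gene. This made 6.72 shared regions per 100 kb, with 8.79 peaks per 100 kb in replicate 1 and 9.83 in replicate 2. No shared region lay within 1 kb of either end of the gene, and the nearest to the transcription start lay 21.3 kb inside it. Closer to the start lay only a replicate 2 peak at −670 bp, upstream of it (summit 38069897, fold enrichment 3.59), for which replicate 1 had no counterpart.

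**Figure D1:**
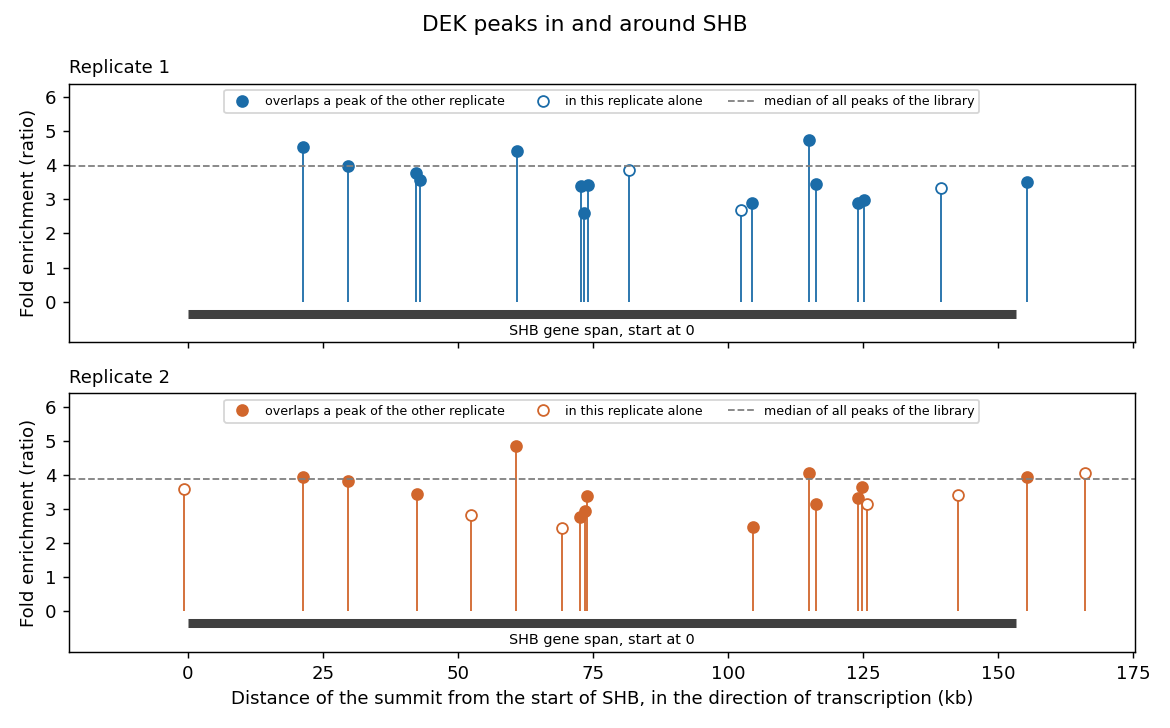
Fold enrichment (ratio, y) of each DEK peak in the SHB window against the distance of its summit from the SHB start (kb, x), with replicate 1 above replicate 2. Filled points overlap a peak of the other replicate, open points do not, and most points lie below the dashed median of the library.

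Read from the start of the gene, 4 shared regions lay in its first part. The first had summits at 38047951 in replicate 1 and 38047893 in replicate 2, with fold enrichments of 4.55 and 3.93 (mean 4.24 ± 0.439, SD, n = 2). The next had summits at 38039540 and 38039491 and a fold enrichment of 4.0 and 3.82 (3.91 ± 0.125). Both lay within 30 kb of the start, and the replicates were closer in the second of them than in the first. A pair of replicate 1 peaks, with summits at 38026282 and 38026907, matched a single broader peak of replicate 2 with its summit at 38026770, at 3.77 and 3.44. The region with the highest mean in the window lay 60.8 kb from the start (38008112 to 38009223), with summits at 38008353 and 38008560 and fold enrichments of 4.43 and 4.86 (4.64 ± 0.306). At 1112 bp it was also among the widest.

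The middle of the gene held a close group of 3 regions, 72.7 to 74.0 kb from the start. Their replicate 1 summits were 37995187, 37995965 and 37996442, and their replicate 2 summits 37995247, 37995664 and 37996691. Fold enrichment was low in all 3, at 3.43, 2.60 and 3.39 in replicate 1 and 3.38, 2.95 and 2.78 in replicate 2. The last part of the gene held a region 104.6 kb from the start, with summits at 37964712 and 37964557, and its mean of 2.68 ± 0.314 was the lowest of the 13.

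Further on lay a group of 4 regions, from 115.0 to 125.0 kb from the start. The region at 37953681 to 37954638, with summits at 37954237 and 37954283, had 4.74 in replicate 1 and 4.07 in replicate 2 (4.41 ± 0.473) and the highest pileup of the gene, 52 and 48 fragments. Its neighbour at 37952811 to 37953130 had summits at 37952939 and 37952955, with 3.44 and 3.15. The other 2 had summits at 37945209 and 37945228 (2.91 and 3.33) and at 37943969 and 37944445 (2.97 and 3.67). These last summits were 476 bp apart, the widest gap between replicates among the 13. The only shared region outside the gene lay beyond its other end, at 37913704 to 37914269, with summits at 37913905 and 37913865 and fold enrichments of 3.52 and 3.94.

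Peaks found in a single library lay among the shared ones. In replicate 1 they had summits at 37929788, 37966720 and 37987623, with fold enrichments of 3.33, 2.70 and 3.87. In replicate 2 the 6 unmatched summits were 37903120, 37926532, 37943458, 38000034, 38016798 and 38069897, with fold enrichments from 2.46 to 4.06. The unmatched SHB peaks had a median −log10 q of 3.82 in the replicate 1 list and 4.07 in that of replicate 2, against 6.28 and 6.86 for shared SHB peaks. The unmatched peaks of the whole lists had a median of 3.57 and 3.61, against 5.08 and 5.48 for shared ones.

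Most SHB peaks were found in both replicates. Of the SHB peaks, 14 of 17 in replicate 1 (82.4%, 95% Wilson interval 59.0 to 93.8) and 13 of 19 in replicate 2 (68.4%, 46 to 84.6) overlapped a peak of the other library. Over all peaks outside the 8 windows the shares were 67.8% (67.1 to 68.5) and 52.2% (51.6 to 52.8). In the windows of the members without SHB, 11 of 19 peaks were shared in each replicate (57.9%, 36.3 to 76.9). The intervals cover counting error only and treat peaks of the same gene as independent. SHB was selected on these same peak lists, so its shares are a description and were not tested against the others. The median gap between replicate summits was 60.0 bp at SHB and 69.0 bp over all shared regions, and summits lay within 100 bp in 7 of 13 SHB regions against 64.6% of all. The median absolute log2 ratio of fold enrichment, replicate 2 over replicate 1, was 0.18 at SHB and 0.17 overall. Fold enrichment was higher in replicate 1 at 8 of the 13 regions and in replicate 2 at 5. Across the 13 regions, which share both libraries and 1 gene, the Spearman coefficient between replicates was 0.82 for fold enrichment and 0.70 for pileup.

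Shared regions were sparser around SHB than over it. SHB was selected on these lists, so this contrast is a description, and no genome-wide density was set beside it. In bins of 50 kb over 1000 kb on each side of the middle of the gene, the central 4 bins held 13 shared regions (6.50 per 100 kb), and the other 36 held 6 (0.333 per 100 kb), with no more than 1 in any bin. The nearest peaks outside the window lay 55.2 and 55.6 kb beyond its lower edge, at summits 37840736 in replicate 1 and 37840285 in replicate 2, and 52.7 kb beyond its upper edge in both, at 38141924 and 38141883. The outermost summits inside the window were, at the lower side, 37913905 in replicate 1 and 37903120 in replicate 2, which lay 18 and 7.22 kb from the edge. At the upper side they were 38047951 in replicate 1 and 38069897 in replicate 2, which lay 41.3 and 19.3 kb from the edge. The neighbouring gene SLC25A51, which encodes a mitochondrial carrier and reaches into the window, held a single replicate 2 peak there. The pseudogenes PAICSP1 and RNU7-124P and the long non-coding RNA gene LOC105376039 are also annotated in the window.

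**Figure D2:**
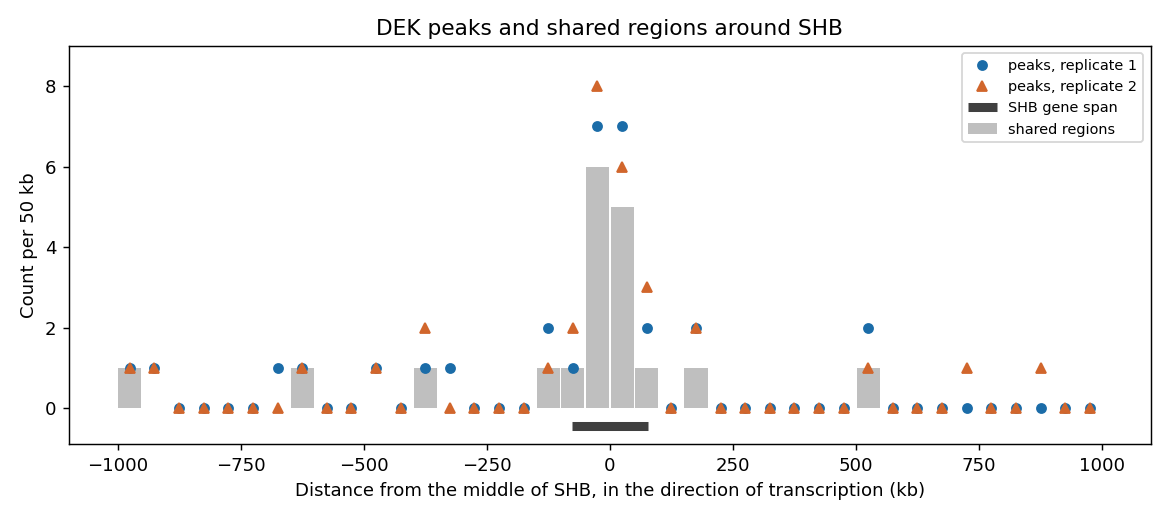
Count per 50 kb (y) of shared regions (bars) and of peaks of each replicate (points) against the distance from the middle of SHB (kb, x), with the gene span as a dark bar. The highest bins, with 6 and 5 shared regions, lie over the gene, and no bin beyond the central 4 holds more than 1.

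The SHB regions combined a high pileup with a low fold enrichment. The summit pileup of the SHB peaks ranged from 20 to 52 fragments in replicate 1 (median 33) and from 18 to 48 in replicate 2 (median 33), against a median of 19 over all peaks of either library. All 13 regions lay above the middle of the pileup ranking of shared regions, with a median percentile of 89.7, but only 3 lay above the middle of the fold enrichment ranking, with a median percentile of 17.8. The local background, computed back from the deposited fold enrichment and p and read as reads of the same library within 10 kb, was high at these peaks. It ranged from 249 to 652 reads per 10 kb in replicate 1 (median 501) and from 226 to 773 in replicate 2 (median 628), against medians of 219 and 246 over all peaks. All 17 SHB peaks of replicate 1 and 18 of 19 of replicate 2 lay above those medians, and 8 and 10 were in the top 5% of their library. If peaks were called without a control library, which the sources used here do not say, the background values include the reads of the peaks themselves. Fold enrichment is a ratio to this background. The part of the number of reads around SHB in its count of peaks was not tested.

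The background differed between the groups of shared regions. In the shared regions 115.0 to 125.0 kb from the start it was between 562 and 586 reads per 10 kb in replicate 1 and between 677 and 742 in replicate 2. In the 4 regions nearest the start it was lower, between 406 and 462 in replicate 1 and between 492 and 547 in replicate 2. Beyond the other end of the gene it was 295 and 359. In the remaining shared regions, 72.7 to 104.6 kb from the start, it was intermediate. It was 501 to 543 reads per 10 kb in replicate 1 and 628 to 668 in replicate 2. Regions closer together than 10 kb share reads in this background, so their values are not independent. The background at peaks found in a single library also varied along the window. Read from the start, it was 249, 652 and 298 reads per 10 kb in replicate 1, at summits 37987623, 37966720 and 37929788. In replicate 2 it was 366, 524, 637, 773, 316 and 226, at 38069897, 38016798, 38000034, 37943458, 37926532 and 37903120. Over the shared regions the order was nearly the same in both replicates (Spearman coefficient 0.97 over 13 regions, a description).

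**Figure D3:**
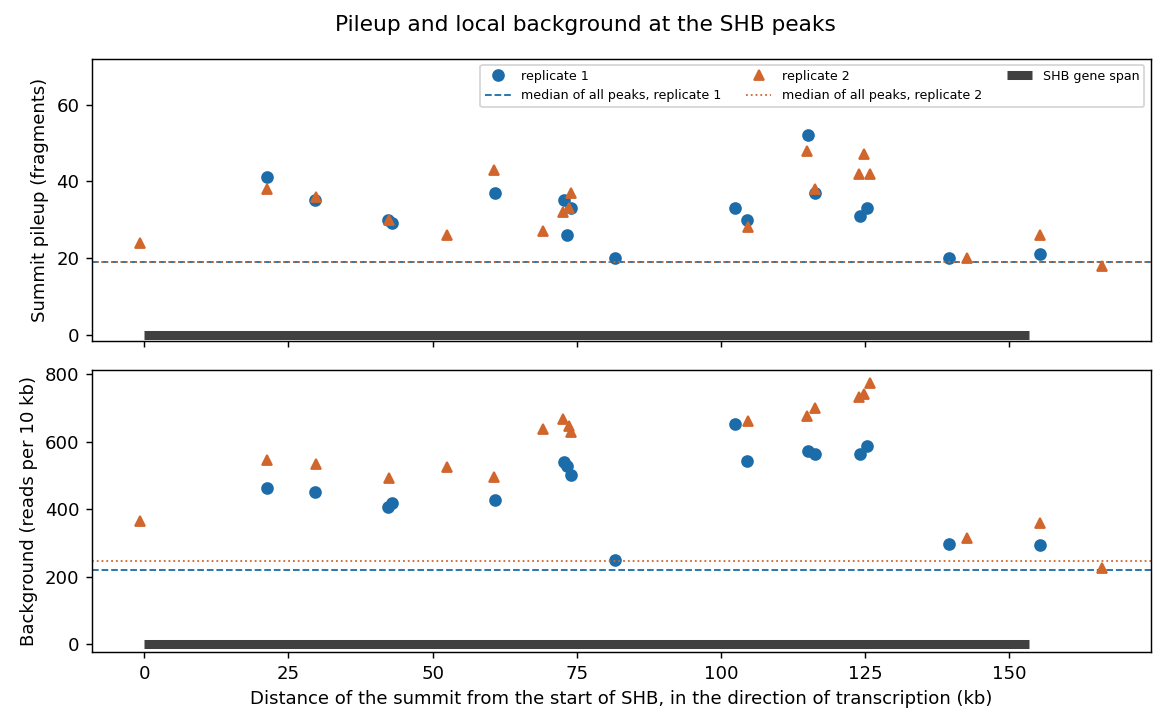
Summit pileup (fragments, upper panel) and local background (reads per 10 kb, lower panel) of the SHB peaks of both replicates against the distance from the SHB start (kb, x), with the medians of all peaks as broken lines. Pileup lies between 18 and 52, and background reaches 652 in replicate 1 and 773 in replicate 2, both nearer to the far end of the gene than to its start.

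The closest relatives of SHB held 0 to 2 shared regions each. SHD, SHE and SHF encode adaptors that, like SHB, end in an SH2 domain. SHD, at chromosome 19 from 4279069 to 4290722, had no peak in either replicate in its 51.7 kb window. SHE, at chromosome 1 from 154469637 to 154502412, had 4 peaks in replicate 1, 3 in replicate 2 and 2 shared regions (2.75 per 100 kb, in the 90.6 percentile of protein-coding genes). The SHE region inside the gene, 18 kb from its start, had summits at 154484402 and 154484473 and fold enrichments of 3.80 and 3.96 (mean 3.88 ± 0.116, SD, n = 2). The other lay inside IL6R, the interleukin-6 receptor gene, with summits at 154463793 and 154463762 (4.15 and 3.73).

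SHF, whose product binds a platelet-derived growth factor receptor, was the only gene of the 8 with a shared region less than 1 kb from either end. Of all protein-coding genes, 7.53% had such a region, and little can be read from 1 of 8 beside that share. SHF lies on chromosome 15 from 45167214 to 45201116, and the region at 45200403 to 45200703 had summits at 45200586 and 45200495, 530 and 621 bp inside the gene from its outermost start. Fold enrichment was 4.43 in replicate 1 and 3.88 in replicate 2 (4.16 ± 0.388), with a pileup of only 17 in both. The region covers the histidine tRNA gene TRH-GTG1-8, at 45200413 to 45200484, and the replicate 2 summit lay 11 bp from its end and the replicate 1 summit 102 bp. The human genome holds further near-identical copies of this tRNA gene, and the sources used here do not say how reads from such copies were placed, so the value is uncertain. A replicate 1 peak with its summit at 45180718 (3.62) lay 489 bp inside another annotated SHF start, without a counterpart in replicate 2. With 2 shared regions, SHF had 2.71 per 100 kb, in the 90.5 percentile of protein-coding genes. The remaining shared region of the window lay inside DUOX1, with summits at 45163577 and 45163299 (3.57 and 3.71).

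Among the SHC genes, SHC1 had the densest window and was the only member with a shared region over one of its RefSeq promoter windows. SHC1 lies on chromosome 1 from 154962298 to 154974376, and its window held 3 peaks of replicate 1, 5 of replicate 2 and 3 shared regions (5.76 per 100 kb). The region inside the gene, 154970764 to 154971639, had summits at 154971161 in replicate 1 and 154970842 in replicate 2, which lay at −414 and −95 bp, upstream, from the internal start whose promoter sequence is given above. The replicate 2 peak overlapped this promoter window and the replicate 1 peak did not, so the capitals rest on replicate 2. Fold enrichment was 2.68 and 3.19 (2.94 ± 0.355, SD, n = 2), in the 6.34 percentile of shared regions, while the background of 509 and 574 reads per 10 kb lay within the range of the SHB peaks. The outermost SHC1 start had no peak, the nearest summits lying 3215 bp inside the gene in replicate 1 and 3534 bp in replicate 2.

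The other 2 regions in the SHC1 window belonged to starts of its neighbours. A region with summits at 154983338 and 154983310 lay at −6 and −34 bp from the start of FLAD1, which encodes FAD synthase, at 5.56 and 5.15, the highest mean of the 24 member regions (5.35 ± 0.287). A region with summits at 154956019 and 154956157 lay at the start of PBXIP1 (3.80 and 3.62). In all, 4 of the 11 shared regions outside the SHB window lay within 1 kb of a transcription start, against 0 of 13 in the SHB window. Of all shared regions 8.76% did.

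SHC2 and SHC3 encode SHC proteins known mainly from neurons. SHC2, on chromosome 19 from 416589 to 461033, had 4 peaks in each replicate and 2 shared regions (2.37 per 100 kb). The one inside the gene lay 3.66 kb from its start, with summits at 457492 and 457258 and fold enrichments of 4.73 and 4.06 (4.40 ± 0.478). The other lay inside CIMAP1D (summits 480370 and 480348, 3.77 and 4.06). A replicate 1 peak at summit 459702 (3.30), 1331 bp from the SHC2 start, had no counterpart.

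SHC3, on chromosome 9 from 89005771 to 89178818, is longer than SHB, and its window held 3 peaks in each replicate and 1 shared region (0.469 per 100 kb). That region, at 89020742 to 89021559, had summits at 89021273 and 89021310, 157.5 kb from the SHC3 start. It ranked high in both libraries, with a fold enrichment of 4.86 and 5.56 (5.21 ± 0.497, SD, n = 2) and a pileup of 31 and 38. SHC4, on chromosome 15 from 48823741 to 48963919, had 2 peaks in each replicate and 1 shared region (0.555 per 100 kb). Its summits, 48925954 and 48925946, lay 8 bp apart, with fold enrichments of 4.89 and 4.97 (4.93 ± 0.0563). That region had a pileup of only 14 and 15 over a background of 116 and 136 reads per 10 kb, in the 4.68 percentile of background. All 13 SHB regions had a higher background than this one, in both libraries.

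**Figure D4:**
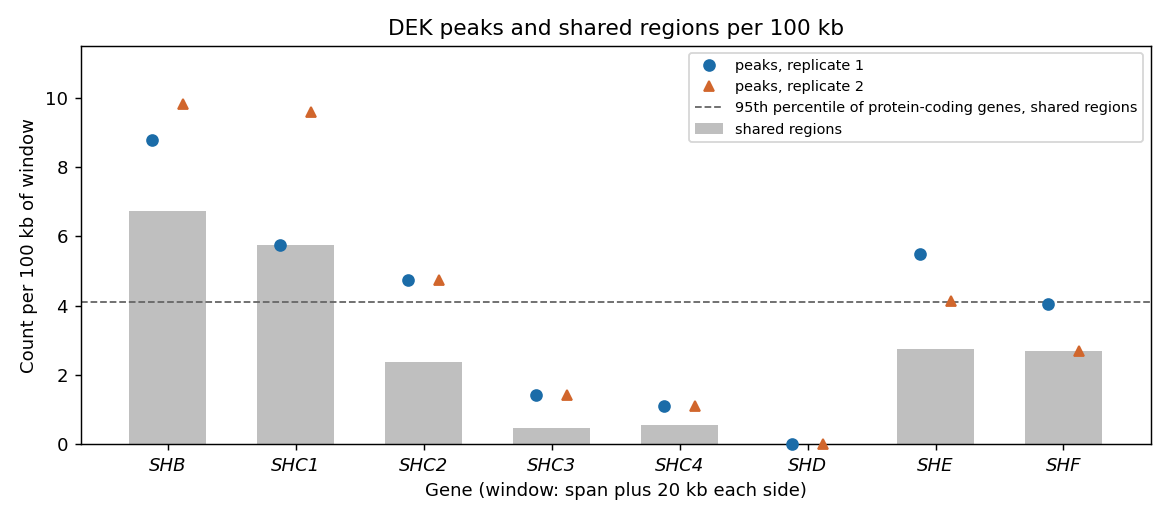
Shared regions (bars) and peaks of each replicate (points) per 100 kb of window (y) for the 8 genes (x). SHB and SHC1, at 6.72 and 5.76 shared regions per 100 kb, lie above the dashed 95th percentile of all protein-coding genes, 4.10, and SHD has no peak.

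Of the 8 genes, 7 had a shared region in the window, against 39.7% of all protein-coding genes, whose median was 0 regions per 100 kb. The members' median was 2.54, and without SHB 2.37. Nothing is read from this count, since earlier results of these lists were known when the genes were chosen and since longer windows have more room. The 8 windows had a median of 79174 bp, against 64158 bp for all genes. The density of SHB ranked 167 of 19974 protein-coding genes in these windows. The rank was 692 when only gene spans were counted, and 606 when replicate summits had to lie within 100 bp. In the original windows SHB ranked 5 of 2106 genes with a span from 0.67 to 1.5 times its own. Among all protein-coding genes SHC1 ranked 338, SHE 1874, SHF 1904, SHC2 2361, SHC4 7372 and SHC3 7528. Among genes of like span, SHC3 ranked 819 of 1882 and SHC4 888 of 2248.

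The genes of like span with densities closest to SHB were ARHGAP35 (13 shared regions, 7.06 per 100 kb), and SUSD1 (12, 6.88). DNM2, which encodes a dynamin, had 10 (6.50), the TGF-beta signal mediator gene SMAD3 11 (6.49) and ERGIC1 10 (6.31). The densest were the retinoid receptor gene RXRA, with 13 regions at 8.43 per 100 kb, and the collagen gene COL18A1, with 11 at 7.40. Likeness here is the difference in shared regions per 100 kb, each of which rests on both libraries.

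**Figure D5:**
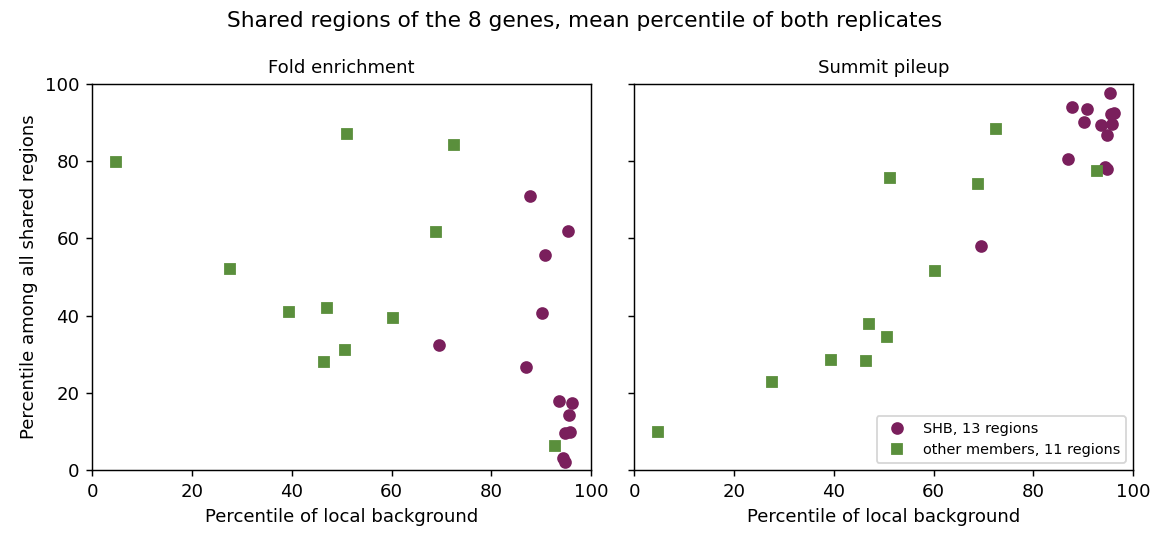
Percentile of fold enrichment (left) and of summit pileup (right) among all shared regions against the percentile of local background, each the mean of both replicates, for 13 SHB regions and 11 regions of the other members. SHB regions crowd at high background, with a median of 94.4, where pileup is high (median 89.7) and fold enrichment mostly low (median 17.8).

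The regions of the other members ranked otherwise at the median. Over the 11 of them, the median percentile was 42.1 for fold enrichment, 38.0 for pileup and 50.6 for background. None of their 19 peaks in either replicate was in the top 5% of background. The region inside SHC1 nevertheless ranked much like those of SHB. Its percentile was 6.34 for fold enrichment, 77.4 for pileup and 92.7 for background. The SHB window and the others were not tested against each other, because SHB was selected on these lists.

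Other adaptors with an SH2 domain and the receptors and effectors that SHB and SHC proteins work with were read in the same way. Of 31 other adaptor genes, 19 had a shared region in the window (61.3%, against 39.7% of all protein-coding genes), with a median of 0.822 per 100 kb, and 5 had no peak in either library. Their median window was 86894 bp. The densest were SH2D3A (3 regions, 5.43 per 100 kb), the T cell adaptor gene SH2D2A (2, 3.95), SH3BP2 (3, 3.41) and CRK, which encodes a partner of tyrosine-phosphorylated docking proteins (2, 2.65). At an end of the gene, within 1 kb, only SH2D3A and SH2D5 had one, 2 of 31, against 7.53% of all protein-coding genes.

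Of 40 partner genes, 20 had a shared region in the window (50%, against 39.7% of all protein-coding genes), with a median of 0.281 per 100 kb in windows of a median of 121638 bp, and 11 had no peak. None had a region within 1 kb of an end, against 7.53% of all protein-coding genes, and this difference was not tested. The kinase gene PTK6 had 3 regions (6.08 per 100 kb). The epidermal growth factor receptor gene EGFR, whose span of 192.6 kb is longer than that of SHB, had 15 peaks in each replicate and 11 shared regions (4.73 per 100 kb). MET, the hepatocyte growth factor receptor gene, had 7 peaks in replicate 1, 8 in replicate 2 and 6 shared regions (3.61 per 100 kb), and CSF1R 3 (3.0).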

How the data were processed

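The deposited files are peak lists, 1 for each library, with peak names that carry a single library each. The submitters' processing notes name GRCh38 (hg38) as the build and list deepTools 3.5.1, MACS2 2.2.7.1, cutadapt 1.18, ChIPseeker 1.32.1, Bowtie2 2.2.5 and DiffBind 3.6.5, with no order or role. A control library in peak calling is neither named nor denied in the sources used here. The authors' deposited fold enrichment is the linear ratio of pileup to local background at each summit, and it was used to describe and rank peaks. The deposited −log10 p and −log10 q belong to the same position, and every q was under 0.05. The deposited score equals 10 times −log10 q, without its decimals, in 100% of replicate 1 peaks and 99.95% of replicate 2 peaks.

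Peaks on chromosomes 1 to 22 and X were kept, which left out 0.591% of replicate 1 and 0.500% of replicate 2. Overlapping peaks were joined, and a region took the strongest peak of each library. Pileup and background were solved from fold enrichment, as (pileup + 1) over (background + 1), and the Poisson p. In 100% of peaks a whole-number pileup met the deposited p, with a relative tolerance of 5e-05. Backgrounds at pileups under 100 were whole reads per 10 kb within 0.05 reads, apart from those at the lowest background. Reading them as the library's own reads assumes calling without a control. Gene spans and promoter sequences came from RefSeq tables of GRCh38.p14, in which all 8 members matched by symbol. Exons were not annotated, and the planned sequence features at summits were not run, since no genome was used here. Solver and overlap counts were tested on simulated data. Python 3.11.15 with scipy 1.17.1 was used.

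Members, lists and tests were chosen with earlier results of these data known. The genes named beside the members were the 4 densest of each list with at least 2 shared regions, the 5 closest to SHB and the 5 densest of like span, and genes overlapping the SHB window. Genes at member regions, and SH2D5, were named after their values were seen. The list of other adaptors and that of partners were drawn up from general knowledge. No comparison between conditions was possible with a single group, so no test was run.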

Additional observations from a re-analysis of the deposited data

How the results depend on the processing

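Of 59 recomputed values, 35 kept within 1.5 times the reported count, or within its Wilson interval for shares, and 24 did not. Keeping peaks with −log10 q of at least 5 left 7 shared regions at SHB (3.62 per 100 kb, rank 276), 10 over the 8 windows, 4 members with a region and 0 at an end. With a fold enrichment of at least 5, SHB had 0 regions (0 per 100 kb) and no rank, the 8 windows had 1, at FLAD1 in the SHC1 window, 1 member had a region and 0 had one at an end. The share of replicate 1 peaks in the 8 windows that matched was then 100%, of a single peak. Summits within 100 bp left 7 regions at SHB (3.62 per 100 kb, rank 606) and 14 in all. Over the 8 windows, the matched share fell from 69.4% to 38.9% in replicate 1 and from 63.2% to 36.8% in replicate 2. A reciprocal overlap of 50% lowered the replicate 1 share over the 8 windows to 50%. The rank of SHB was 692 for the gene span alone and 5 among genes of like span. Within 3 kb of an end, 3 members had a region (SHB, SHC1 and SHF). Leaving out a replicate and counting all peaks of the other gave 36 to 38 regions over the 8 windows and 1 to 3 members with 1 at an end, the higher value being that without replicate 1, where SHB and SHC1 joined SHF. Apart from fewer peaks under stricter thresholds, the cause was not tested. No SHB peak reached a fold enrichment of 5, the highest being 4.74 in replicate 1 and 4.86 in replicate 2. A median pileup of 19 limits the precision of single peaks.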

Other observations

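Among the 362 protein-coding genes with at least 5 shared regions in the window, SHB ranked 58 by regions per 100 kb, 26 by median pileup (35.5 fragments, against a median of 25.5 over these genes) and 32 by median background (587 reads per 10 kb, against 356). By median fold enrichment it ranked only 303 (3.41, against 3.80). These values describe a gene selected on the same lists, and no test was made.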
